A study of Vitis vinifera with 60 samples.

Results

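The PR10 cluster of grapevine is described here as the run of gene identifiers VIT_05s0077g01510 to VIT_05s0077g01600 on chromosome 5. Every row of the deposited table that held one of these identifiers was taken, also where identifiers were joined. This gave 9 rows with 10 identifiers, of 29287 rows in all, because VIT_05s0077g01570 and VIT_05s0077g01580 share 1 row. The range was set by identifier number, though with earlier results of these data known. The name PR10 was given with the range. The table does not pair identifiers with names, and 0 of the 10 identifiers were found in a RefSeq table of 29591 grapevine genes, so the name could not be checked for single rows.

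PR10 proteins are small, mostly intracellular proteins of the family that also holds the major birch pollen allergen. They fold around a cavity that can bind hydrophobic ligands, and a ribonuclease activity has been described for several of them. In plants they are induced by pathogens, wounding and abiotic stress, and some are also made during normal development. Their genes often lie in tandem runs of similar copies.

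Messenger RNA was sequenced from berry pericarp, meaning whole berries with the seeds removed, of 5 white-skinned Vitis vinifera cultivars: Garganega, Glera, Moscato bianco, Passerina and Vermentino. All vines grew in 1 experimental vineyard and were sampled in the same season. Berries were taken when pea-sized (Pea), when beginning to touch (Touch), when soft (Soft) and when ripe for harvest (Harv). Each cultivar has 3 libraries per stage, which the labels do not trace to separate vines. The deposited table gives their mean in FPKM, a fragment count scaled by transcript length and library size, in 20 columns, so the error between libraries and the sequencing depth are unknown. Each stage mean ± SD is taken across cultivars (n = 5). The tissue label was not checked against marker genes, which have no names in the table.

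The cluster was most abundant at harvest in 4 of 5 cultivars, and its rows fell into 3 kinds, apart from 3 rows near 0. VIT_05s0077g01530, VIT_05s0077g01540, VIT_05s0077g01550 and VIT_05s0077g01560 had at most 16.7 FPKM in green berries and rose at harvest. Their highest green-berry values were 16.7 FPKM for VIT_05s0077g01560 in Glera and 14.2 FPKM for VIT_05s0077g01530 in Moscato bianco, both at Pea. The joined row VIT_05s0077g01570,VIT_05s0077g01580 was abundant at all stages and also rose at harvest. VIT_05s0077g01510 stayed between 7.34 and 11.6 FPKM in all 20 columns. The remaining 3 rows were near 0. VIT_05s0077g01520 was listed at 0 in 19 columns and VIT_05s0077g01590 in 14, with highest values of 0.0522 and 0.221 FPKM. VIT_05s0077g01600 reached 1 FPKM in 1 column only, Garganega at Harv, with 1.69 FPKM. In whole pericarp, more RNA per cell and a larger share of cells that make the RNA cannot be told apart. Libraries did not mark strand, and near-identical copies can share fragments, so the division of FPKM among adjacent rows is uncertain.

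**Figure D1:**
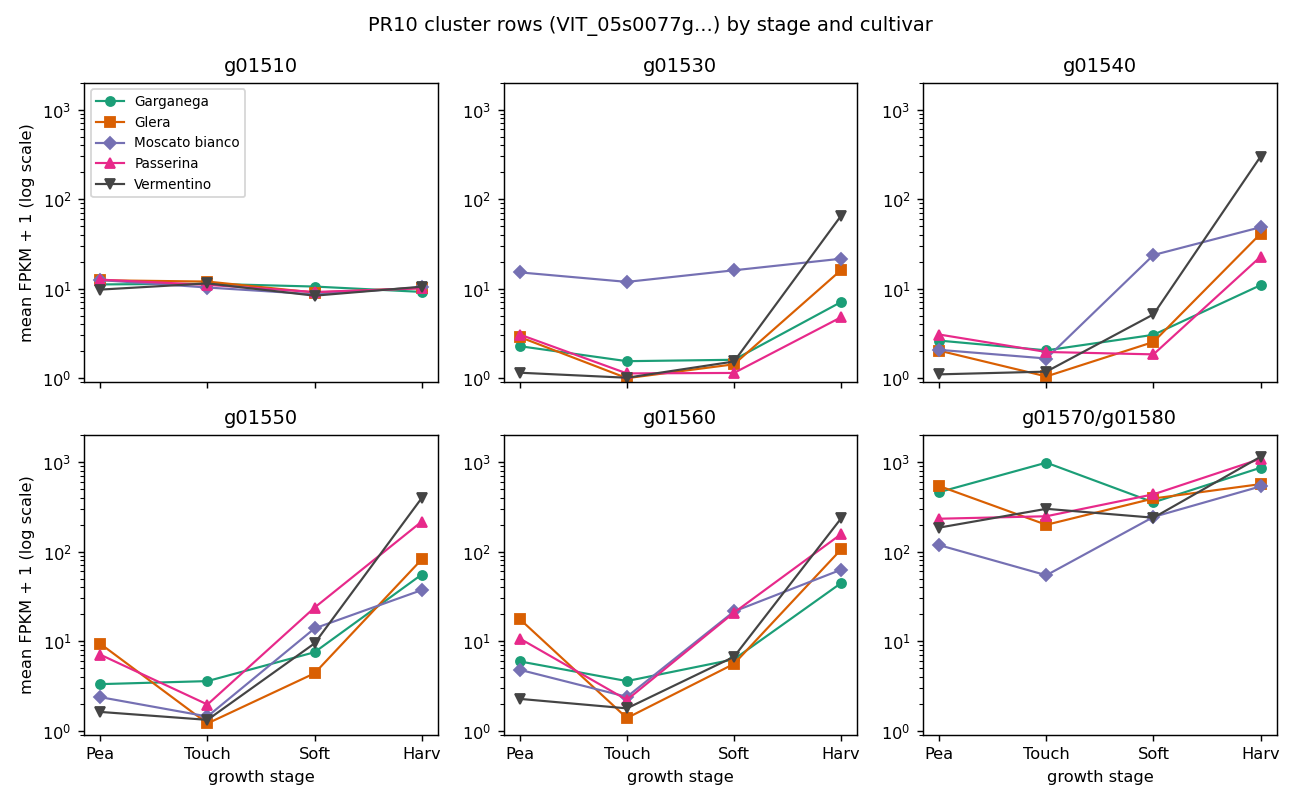
Mean FPKM + 1 (log scale) against growth stage for the 6 rows that reached 5 FPKM, with 1 line for each cultivar; g01530 stands for VIT_05s0077g01530, and so on. Rows g01530 to g01560 are highest at Harv in every cultivar, g01570/g01580 is high throughout, and g01510 is flat.

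The joined row VIT_05s0077g01570,VIT_05s0077g01580 held most of the cluster's FPKM. At Pea its FPKM was 461 in Garganega, 539 in Glera, 117 in Moscato bianco, 232 in Passerina and 184 in Vermentino. At Touch the values were 984 FPKM in Garganega, 198 FPKM in Glera, 53.4 FPKM in Moscato bianco, 247 FPKM in Passerina and 300 FPKM in Vermentino. Moscato bianco was thus the lowest cultivar at both green stages, and Garganega at Touch stood far above the others. At Soft the row had 354 FPKM in Garganega, 391 FPKM in Glera, 243 FPKM in Moscato bianco, 436 FPKM in Passerina and 238 FPKM in Vermentino. At Harv it had 864 FPKM in Garganega, 567 FPKM in Glera, 534 FPKM in Moscato bianco, 1085 FPKM in Passerina and 1146.5 FPKM in Vermentino. The cultivars lay closest together at Soft, where the highest was 1.83 times the lowest, against 18.4 times at Touch. All 5 Harv values lay above all 5 Soft values. By rank of FPKM in its column, the row was between the 74th and the 158th of 29287 rows at Harv.

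The stage means of this row were 307 ± 183 FPKM at Pea, 357 ± 363 FPKM at Touch, 332 ± 89 FPKM at Soft and 839 ± 284 FPKM at Harv (SD, n = 5 cultivars). The ranges of Pea, Touch and Soft overlapped. Harv overlapped with Touch only through Garganega. It also overlapped with Pea, as Glera at Pea had 539 FPKM and Moscato bianco at Harv 534 FPKM.

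VIT_05s0077g01550 had the largest change between Pea and Harv on the log2(FPKM + 1) scale, while by plain FPKM the Harv to Pea ratio of VIT_05s0077g01540 was larger in Glera, Moscato bianco and Vermentino. At Pea its FPKM was 2.31 in Garganega, 8.35 in Glera, 1.37 in Moscato bianco, 6.06 in Passerina and 0.621 in Vermentino. At Touch its FPKM was 2.58 in Garganega, 0.205 in Glera, 0.441 in Moscato bianco, 0.961 in Passerina and 0.321 in Vermentino. These green-berry levels were low, and Glera and Passerina, the highest at Pea, did not stay highest at Touch. At Soft it had 6.52 FPKM in Garganega, 3.38 FPKM in Glera, 12.9 FPKM in Moscato bianco, 22.7 FPKM in Passerina and 8.45 FPKM in Vermentino. At Harv it had 54.4 FPKM in Garganega, 80.9 FPKM in Glera, 36.2 FPKM in Moscato bianco, 215 FPKM in Passerina and 395 FPKM in Vermentino. All Soft values lay above all Touch values, and all Harv values above all Soft values.

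VIT_05s0077g01560 followed the same course at similar levels. At Pea its FPKM was 4.94 in Garganega, 16.7 in Glera, 3.79 in Moscato bianco, 9.71 in Passerina and 1.27 in Vermentino. At Touch its FPKM was 2.58 in Garganega, 0.385 in Glera, 1.39 in Moscato bianco, 1.21 in Passerina and 0.776 in Vermentino. Every cultivar was lower at Touch than at Pea. At Soft it had 5.27 FPKM in Garganega, 4.58 FPKM in Glera, 20.5 FPKM in Moscato bianco, 19.8 FPKM in Passerina and 5.69 FPKM in Vermentino. At Harv it had 43.6 FPKM in Garganega, 105 FPKM in Glera, 61.8 FPKM in Moscato bianco, 156 FPKM in Passerina and 234 FPKM in Vermentino. Soft again lay above Touch, and Harv above Soft, without overlap between cultivars.

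VIT_05s0077g01540 was close to 0 in green berries and differed most between cultivars at harvest. At Pea its FPKM was 1.63 in Garganega, 1.03 in Glera, 1.07 in Moscato bianco, 2.07 in Passerina and 0.103 in Vermentino. At Touch its FPKM was 1.05 in Garganega, 0.0454 in Glera, 0.658 in Moscato bianco, 0.961 in Passerina and 0.183 in Vermentino. No cultivar passed 2.07 FPKM at either stage. At Soft it had 2.05 FPKM in Garganega, 1.54 FPKM in Glera, 22.7 FPKM in Moscato bianco, 0.844 FPKM in Passerina and 4.16 FPKM in Vermentino. At Harv it had 9.93 FPKM in Garganega, 40.1 FPKM in Glera, 47.5 FPKM in Moscato bianco, 21.7 FPKM in Passerina and 298 FPKM in Vermentino. Moscato bianco was high already at Soft, where it overlapped with the Harv values of Garganega and Passerina. The highest cultivar at Harv was 30.0 times the lowest, compared with 10.9 times for VIT_05s0077g01550 and 5.38 times for VIT_05s0077g01560.

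VIT_05s0077g01530 was lower, with 64.3 FPKM at most, and its course depended on the cultivar. In Moscato bianco it was present at all stages, with 14.2 FPKM at Pea, 10.9 FPKM at Touch, 15.0 FPKM at Soft and 20.6 FPKM at Harv. In the other 4 cultivars it reached at most 2.07 FPKM at Pea, 0.548 FPKM at Touch and 0.604 FPKM at Soft, and was listed at 0 in Glera at Touch. At Harv these 4 cultivars had 6.09 FPKM in Garganega, 15.2 FPKM in Glera, 3.80 FPKM in Passerina and 64.3 FPKM in Vermentino. The order of stage means placed Touch lowest for VIT_05s0077g01530, VIT_05s0077g01540, VIT_05s0077g01550 and VIT_05s0077g01560, and Harv highest. Between neighbours in that order, the cultivars' ranges were apart only for Soft against Harv, and only in VIT_05s0077g01550 and VIT_05s0077g01560.

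Stages were compared with limma on log2(FPKM + 1), with stage and cultivar as terms in 1 model over all columns and with cultivars serving as replicates. A row was called when the adjusted p (Benjamini-Hochberg over all 20833 rows tested) was under 0.05 and the change at least 2-fold on that scale. Rows were tested when they reached 1 FPKM in some column, which 7 of the 9 members did. VIT_05s0077g01600 passed that filter only through its 1 Harv value. Changes on the log2(FPKM + 1) scale understate the fold of low rows. The comparisons share columns, so their values are not independent of each other.

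Between Soft and Harv, the last interval sampled, 5 of the 7 rows tested rose and 0 fell. Over all rows tested, 2.05% rose and 5.15% fell in this step. VIT_05s0077g01550 averaged 156 ± 151 FPKM at Harv and 10.8 ± 7.5 FPKM at Soft, and limma gave a change of 3.42 in log2 with SE 0.61 and adjusted p = 0.000658. For VIT_05s0077g01560 the means were 120 ± 77 FPKM at Harv and 11.2 ± 8.2 FPKM at Soft, and limma gave a change of 3.34 in log2 with SE 0.57 and adjusted p = 0.000453. VIT_05s0077g01540 changed by 3.27 (SE 0.72, adjusted p = 0.00288), with 83.4 ± 121 FPKM at Harv and 6.26 ± 9.29 FPKM at Soft. VIT_05s0077g01530 changed by 2.71 (SE 0.61, adjusted p = 0.0032), with 22.0 ± 24.6 FPKM at Harv and 3.35 ± 6.53 FPKM at Soft. The joined row changed least of these, by 1.31 (SE 0.44, adjusted p = 0.0298). All 5 rows were higher at Harv than at Soft in 5 of 5 cultivars. The median log2 change over the 7 rows tested was 2.71, and over all rows tested it was -0.02. The call of the joined row was lost without Vermentino (log2 change 1.07, adjusted p = 0.144), without Passerina (log2 change 1.30, adjusted p = 0.0786) and after quantile normalization (adjusted p = 0.0637). With a pseudocount of 5 in place of 1 the log2 change of VIT_05s0077g01530 was 1.53, and its call was kept.

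**Figure D2:**
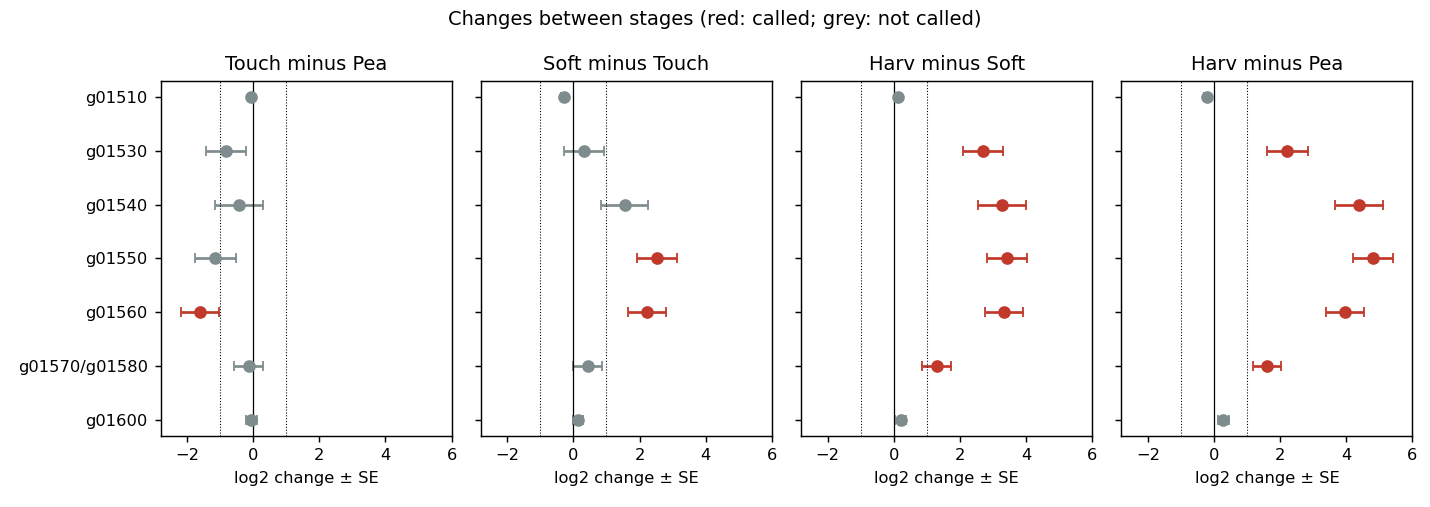
Log2 change of FPKM + 1 (points, with bars of 1 SE from limma) for the 7 rows tested, in 4 comparisons of stages; dotted lines mark a 2-fold change, and red points are called. The 5 rows called in Harv minus Soft lie between 1.31 and 3.42, while g01510 and g01600 lie at 0.14 and 0.21 and are not called.

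The harvest rise had a different size in each cultivar. Harv FPKM divided by Soft FPKM was largest in Vermentino and smallest in Moscato bianco for VIT_05s0077g01530 (120 in Vermentino, 1.37 in Moscato bianco), VIT_05s0077g01540 (71.6 in Vermentino, 2.09 in Moscato bianco), VIT_05s0077g01550 (46.8 in Vermentino, 2.81 in Moscato bianco) and VIT_05s0077g01560 (41.2 in Vermentino, 3.02 in Moscato bianco). For the joined row it was largest in Vermentino, 4.81, and smallest in Glera, 1.45. With 1 value for each cultivar and stage, these differences between cultivars have no test.

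At softening, the step from Touch to Soft, 2 of the 7 members tested rose and 0 fell, while 3.59% of all rows tested rose and 15.2% fell. VIT_05s0077g01550 averaged 10.8 ± 7.5 FPKM at Soft and 0.902 ± 0.981 FPKM at Touch, and limma gave a change of 2.53 in log2 with SE 0.61 and adjusted p = 0.00249. VIT_05s0077g01560 averaged 11.2 ± 8.2 FPKM at Soft and 1.27 ± 0.83 FPKM at Touch, and limma gave a change of 2.23 in log2 with SE 0.57 and adjusted p = 0.0035. Both were higher at Soft in 5 of 5 cultivars. VIT_05s0077g01540 had a log2 change of 1.55 that missed the threshold (SE 0.72, adjusted p = 0.0784), and it was higher at Soft in 4 of 5 cultivars. It passed with a pseudocount of 0.1 (adjusted p = 0.0305), with columns scaled to equal medians (adjusted p = 0.0468), after quantile normalization (adjusted p = 0.0252) and with the 2 stages alone (adjusted p = 0.0483), and without Moscato bianco its change was 0.97. With a pseudocount of 5 the changes of VIT_05s0077g01550 and VIT_05s0077g01560 were 1.31 and 1.23, still called. The joined row moved in different directions, with 354 FPKM at Soft against 984 FPKM at Touch in Garganega but 243 FPKM at Soft against 53.4 FPKM at Touch in Moscato bianco, and its mean change of 0.43 had an adjusted p of 0.413.

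Between the green stages, from Pea to Touch, 1 of the 7 members tested fell and 0 rose, while 5.77% of all rows tested fell and 2.14% rose. VIT_05s0077g01560 averaged 1.27 ± 0.83 FPKM at Touch and 7.27 ± 6.08 FPKM at Pea, with a change of -1.61 in log2 (SE 0.57, adjusted p = 0.0413), and so fell. It was lower at Touch in 5 of 5 cultivars, though the ranges of the stages overlapped. The call was lost without Glera (change -1.09, adjusted p = 0.195), Moscato bianco (change -1.76, adjusted p = 0.0614) or Passerina (change -1.44, adjusted p = 0.154), and in 4 other alternatives, with a change of -0.84 at a pseudocount of 5. The 6 other rows tested had log2 changes between -1.14 and -0.05 that missed the threshold.

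Over the whole period, Harv against Pea, the same 5 rows as in the last step rose and 0 fell, beside 7.30% of all rows rising and 27.0% falling. VIT_05s0077g01550 had 156 ± 151 FPKM at Harv and 3.74 ± 3.32 FPKM at Pea, and limma gave a change of 4.81 in log2 with SE 0.61 and adjusted p = 4.76e-06. VIT_05s0077g01540 had 83.4 ± 121 FPKM at Harv and 1.18 ± 0.74 FPKM at Pea, and limma gave a change of 4.38 in log2 with SE 0.72 and adjusted p = 6.41e-05. VIT_05s0077g01560 changed by 3.96 (SE 0.57, adjusted p = 1.6e-05), VIT_05s0077g01530 by 2.22 (SE 0.61, adjusted p = 0.00413) and the joined row by 1.60 (SE 0.44, adjusted p = 0.00392). Harv values lay above Pea values without overlap in VIT_05s0077g01540, VIT_05s0077g01550 and VIT_05s0077g01560. Without Vermentino the change of VIT_05s0077g01530 was 1.32 (adjusted p = 0.0127), and with a pseudocount of 5 it was 1.37. In Glera the joined row had 567 FPKM at Harv and 539 FPKM at Pea, a ratio of 1.05.

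VIT_05s0077g01510 was not called in any comparison. Its means were 10.7 ± 1.2 FPKM at Pea, 10.2 ± 0.6 FPKM at Touch, 8.15 ± 0.85 FPKM at Soft and 9.06 ± 0.51 FPKM at Harv. The log2 change from Touch to Soft was -0.30 (SE 0.09, adjusted p = 0.00816) with FPKM as deposited, and its direction turned with the columns brought to equal medians or quantiles, to 0.19 in both. From Pea to Harv its change was -0.21 as deposited and at most 0.41 so scaled. The median of all rows moved by -0.31 in the same step and by -0.34 from Pea to Harv on the deposited scale, against 0.07 and 0.17 with equal medians. The 5 rising rows kept their direction under both scalings.

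The make-up of the cluster was followed over ripening, as a description with no test. FPKM is scaled by transcript length and can be summed over rows. The 9 rows together had 334 ± 187 FPKM at Pea, 372 ± 363 FPKM at Touch, 373 ± 85 FPKM at Soft and 1231 ± 594 FPKM at Harv (SD, n = 5 cultivars). At Harv the sums were 988 FPKM in Garganega, 817 FPKM in Glera, 710 FPKM in Moscato bianco, 1492 FPKM in Passerina and 2149 FPKM in Vermentino. Harv was the highest stage in all cultivars but Garganega, where the sum at Touch was 1002 FPKM. The cluster's share of all FPKM in a column was 0.0426% ± 0.0248 at Pea and 0.126% ± 0.055 at Harv. The joined row held 89.9% ± 7.0 of the cluster's FPKM at Pea, 90.7% ± 11.7 at Touch, 88.7% ± 7.9 at Soft and 71.6% ± 12.3 at Harv. VIT_05s0077g01530 to VIT_05s0077g01560 together held 5.85% ± 5.04 at Pea and 27.4% ± 12.5 at Harv. In Vermentino at Harv these 4 rows held 46.2%, the highest share of any column, and in Glera at Touch 0.303%, the lowest.

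**Figure D3:**
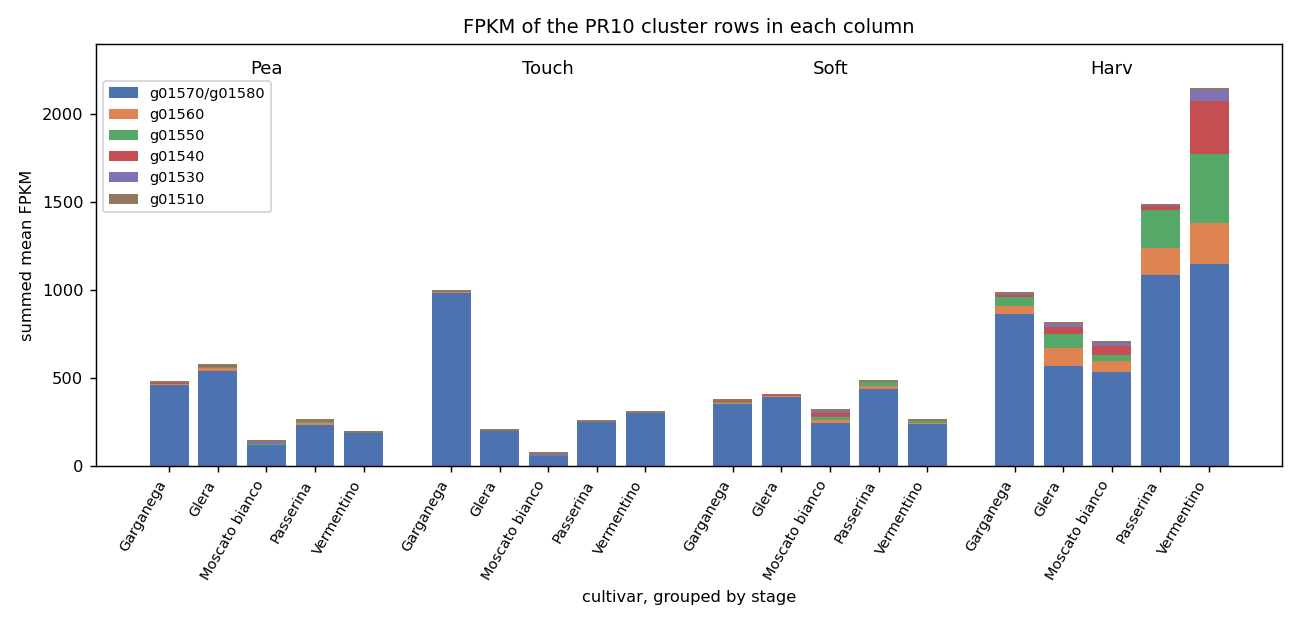
Stacked bars of mean FPKM for the 6 rows that reached 5 FPKM, for each cultivar grouped by stage from Pea to Harv; bar height is their sum. The joined row g01570/g01580 makes up most of each bar, and g01530 to g01560 become visible at Harv, most of all in Vermentino.

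VIT_05s0077g01550 and VIT_05s0077g01560 moved together most closely. The Pearson correlation of their log2(FPKM + 1) over the 20 columns was 0.98. VIT_05s0077g01540 had 0.88 with VIT_05s0077g01550 and 0.89 with VIT_05s0077g01560. The joined row had 0.55 to 0.72 with these 3 rows, and 0.13 with VIT_05s0077g01530. VIT_05s0077g01510 had between -0.34 and -0.05 with the others. The columns share stages and cultivars, so these values only describe the table.

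The balance within the closest pair was compared between stages. FPKM of VIT_05s0077g01560 divided by that of VIT_05s0077g01550 was 2.11 ± 0.42 at Pea, 1.94 ± 0.87 at Touch, 1.06 ± 0.39 at Soft and 1.02 ± 0.47 at Harv. The mean was thus near its Harv level already at Soft. At Pea the quotient rests on low values, with 0.621 to 8.35 FPKM for VIT_05s0077g01550. The quotient was lower at Harv than at Pea in 5 of 5 cultivars, with a mean difference of -1.13 in log2 (SD 0.49). A two-sided exact permutation test over cultivars gave p = 0.0625, the smallest value that 5 cultivars allow, so the design cannot pass 0.05. This comparison was chosen after the values were seen. Whether fragments shared between the rows enter the quotient was not tested.

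Cultivars were compared over all stages in the same model, each against the mean of the other 4. Here the 4 stages serve as repeated values, which come from 1 vineyard and season and are not independent vines, and the 5 comparisons share all columns. In Moscato bianco 1 row was higher and 1 lower, beside 1.69% of all rows higher and 2.04% lower. VIT_05s0077g01530 averaged 15.2 ± 4.0 FPKM over stages in Moscato bianco and 6.07 ± 16.0 FPKM in the other cultivars, a log2 difference of 2.58 (SE 0.54, adjusted p = 0.00358), and it stood above the mean of the others at all 4 stages on the log2 scale. At Harv, Vermentino with 64.3 FPKM stood above Moscato bianco with 20.6 FPKM. The joined row averaged 237 ± 213 FPKM in Moscato bianco and 514 ± 327 FPKM in the others, a log2 difference of -1.34 (SE 0.38, adjusted p = 0.0225), and was below the mean of the others at all 4 stages. With a stage left out, the call of VIT_05s0077g01530 was lost without Touch (log2 difference 2.31, adjusted p = 0.0569) or without Soft (log2 difference 2.27, adjusted p = 0.0591), and its difference was 1.38 with a pseudocount of 5. The call of the joined row was lost without Pea (log2 difference -1.30, adjusted p = 0.0812) or without Touch (log2 difference -0.89, adjusted p = 0.12).

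In Garganega, Glera, Passerina and Vermentino limma, the only test run for these comparisons, called 0 members. At an unadjusted p under 0.05 there were 2 members in Garganega, the joined row and VIT_05s0077g01600, and 0 in each of the other 3. VIT_05s0077g01600 was near 0 and was tested only through its 1.69 FPKM in Garganega at Harv, so its p carries no weight here. The share of all rows at this unadjusted level was not counted, so the count of 2 has no background beside it. The shares given next are for called rows, a stricter threshold. Of all rows tested, 2.04% were called higher and 1.28% lower in Garganega, 1.39% higher and 1.51% lower in Glera, 1.49% higher and 1.02% lower in Passerina, and 1.51% higher and 1.81% lower in Vermentino. The joined row in Garganega had a log2 difference of 0.97 (SE 0.38, adjusted p = 0.0925). Vermentino, with the highest Harv values in all 5 rows that rose, had log2 differences between -0.37 and 0.54 in VIT_05s0077g01530 to VIT_05s0077g01560, and it was the lowest cultivar at Pea in the same 4 rows. Without Harv, VIT_05s0077g01530 was called lower in Vermentino (log2 difference -1.22, adjusted p = 0.0079). The others included Moscato bianco, with 14.2 FPKM at Pea, 10.9 FPKM at Touch and 15.0 FPKM at Soft. At Soft, Vermentino with 0.535 FPKM stood above Glera (0.428 FPKM) and Passerina (0.144 FPKM) and below Garganega (0.604 FPKM). At Touch, where Vermentino had 0.0109 FPKM, only Glera, listed at 0, was lower.

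Rows on both sides of the run were examined, over 10 identifier numbers on each side. Of 18 neighbouring rows, 14 were tested. From Pea to Touch 0 of them rose and 2 fell. From Touch to Soft 3 of the 14 neighbours rose and 1 fell, beside 2 rising and 0 falling among the 7 members tested. From Soft to Harv 0 of the neighbours rose and 2 fell, and from Pea to Harv 1 rose and 1 fell. Their median log2 change from Pea to Harv was -0.21, beside 2.22 for the 7 members tested and -0.34 for all rows tested. The neighbour that rose from Pea to Harv, VIT_05s0077g01650, had 287 ± 316 FPKM at Harv and 49.4 ± 47.2 FPKM at Pea. For it limma gave a change of 1.78 in log2 with SE 0.61 and adjusted p = 0.0164, higher at Harv in 4 of 5 cultivars. Its called rise came earlier, with a log2 change of 3.42 from Touch to Soft (adjusted p = 0.000235). From Soft to Harv its change was -0.66 (SE 0.61, adjusted p = 0.446), though it was higher at Harv in 2 of 5 cultivars, Garganega and Vermentino. In Vermentino, where the members rose most, VIT_05s0077g01650 reached 59.4 FPKM at Harv, and in Passerina at Soft it reached 970 FPKM. The neighbour that fell from Pea to Harv, VIT_05s0077g01450, had 1.37 ± 0.35 FPKM at Harv and 16.5 ± 4.8 FPKM at Pea.

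**Figure D4:**
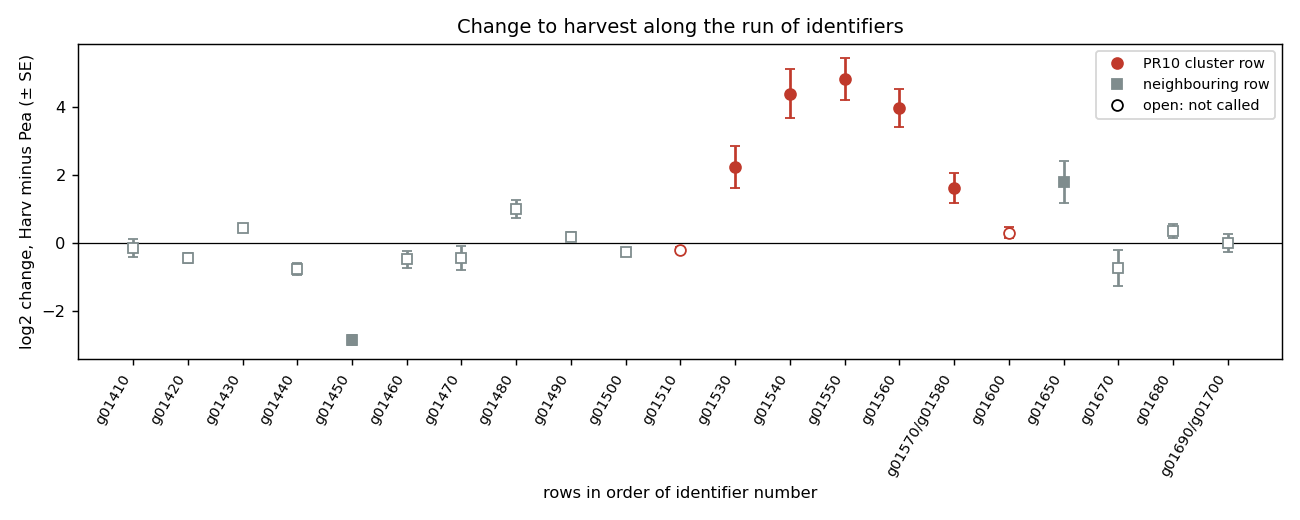
Log2 change of FPKM + 1 from Pea to Harv (points, with bars of 1 SE from limma) for the 7 members and 14 neighbouring rows tested, in order of identifier number; filled points are called. The members g01530 to g01570/g01580 form an unbroken run of rising rows, and among the neighbours g01650 rose and g01450 fell.

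Among 13909 other rows that reached 10 FPKM in some column, those most like the joined row over the 20 columns were sought by Pearson correlation of log2(FPKM + 1). The 5 highest values ran from 0.82 to 0.92. The first was VIT_00s0125g00070 with 0.92 and the second VIT_00s0125g00060 with 0.88. The third belonged to the same run of identifiers, VIT_00s0125, of which the table has 37 rows. The 14 of these that reached 10 FPKM ran from -0.59 to 0.92 with a median of 0.50, and the median of all rows searched was -0.23. This run was picked from the same search and the 14 include its top rows, so the medians only describe the table. VIT_00s0125g00070 had 100.5 to 500.1 FPKM at Harv, 51.7 to 204 FPKM at Soft, 20.8 to 180 FPKM at Touch and 26.6 to 161 FPKM at Pea. These rows carry no names in the table.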

How the data were processed

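The authors deposited 1 table of FPKM, with 20 columns named for a cultivar and a stage, each a mean per the name and header of the file. Libraries were non-directional TruSeq libraries, per the labels' protocols. TopHat2 2.0.6 and Cufflinks 2.0.2 are listed in the submitters' processing notes. Roles, genome build and annotation: not given in the sources used here. Columns were matched to groups by name, and single libraries were not analysed here.

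The test kept 20833 rows that reached 1 FPKM in some column. Values were tested as log2(FPKM + 1) with limma 3.58.1 under R 4.3.3 (eBayes with trend), with stage and cultivar as terms, leaving 12 residual degrees of freedom. The procedure was tested on simulated data. There, changes were planted only in rows of higher mean FPKM, and calls were scored only from Touch to Soft. In stage comparisons, p-values measure how unevenly cultivars changed. In cultivar comparisons, they measure how unevenly the difference of a cultivar ran over stages. Neither kind measures the error between libraries. Every member was reported, in all columns where it reached 100 FPKM, with change, SE and adjusted p where called. VIT_05s0077g01530, below that level, was given in all columns after its values were seen. The 5 rows most like the most abundant member were sought by Pearson correlation. The members and lists were chosen with earlier results of these data known. The alternatives were other pseudocounts, filters and scalings, no trend, 2 stages alone, and leaving out a cultivar or a stage.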

Additional observations from a re-analysis of the deposited data

Results flagged for a closer look

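In 25 sets, each of 1 row at 1 stage with 5 cultivars and at least 1 FPKM, 2 held a value far from the rest by Dixon's test on log2(FPKM + 1). Chance alone gives about 1 such set in 20. Both concern VIT_05s0077g01530 in Moscato bianco. At Touch it stood at 10.9 FPKM there and at 0 to 0.548 FPKM in the other cultivars. At Soft it stood at 15.0 FPKM there and at 0.144 to 0.604 FPKM in the others.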

How the results depend on the processing

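The count of rows that rose from Pea to Harv was 5 in all 13 alternatives, from Soft to Harv it was 4 or 5 and from Touch to Soft 2 or 3. From Pea to Touch the 1 called row became 0 with a pseudocount of 5, without a filter, with equal medians and after quantile normalization, and 0 to 1 with a cultivar left out. For Moscato bianco against the other cultivars, 2 called rows became 0 to 2 with a stage left out, and for Vermentino 0 became 0 to 1. For Garganega, Glera and Passerina the count was 0 in all 11 alternatives. Among values of single rows under alternatives, 14 lost a call, 5 gained one and 710 did neither. The cause of these changes was not tested. By Spearman correlation, 4 of the 5 rows most like the joined row were shared. No paired analysis was possible by replicate number because each cultivar and stage has 1 mean value and single libraries were not analysed here; cultivar is a term in every stage comparison. Depth is unknown, so no counting error is given for low values.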
